A study of Mus musculus with 6 samples.

Results

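The Arp2/3 complex and the proteins that switch it on were followed in platelet RNA through 10 genes of the 24346 gene symbols in the tables. The genes were taken by symbol: 7 subunit genes (Actr2, Actr3, Arpc1b, Arpc2, Arpc3, Arpc4 and Arpc5) and 3 genes of the activating machinery (Was, Wasf2 and Wipf1). All 10 symbols were found in every table, and all 10 were above the expression limit for testing (a mean of at least 1 FPKM over the 6 libraries). FPKM, the deposited unit, scales fragments by transcript length and library size, so levels of different genes can be set side by side. Libraries came from mouse blood platelets (thrombocytes) of 3 wild-type samples and 3 samples homozygous for a knock-in of R734C in integrin β3, the β chain of the platelet fibrinogen receptor. The groups are called wild type (WT) and knock-in (KI) below. Total FPKM was not equal between libraries, at 641278 to 708432 in WT and 758381 to 856863 in KI, all KI totals above all WT totals. The labels give no strain, age, sex or treatment, and they do not say whether a library came from 1 animal or from pooled animals. P-values therefore measure only the spread between these libraries, which may be technical.

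Arp2/3 is a stable assembly that binds the side of an actin filament and starts a daughter filament there, which gives branched networks. Actr2 and Actr3 encode Arp2 and Arp3, the actin-related proteins that act as the first units of the new filament, and the Arpc genes encode the proteins that hold them. The complex has little activity until a WASP or WAVE protein binds it, downstream of the GTPases Cdc42 and Rac. In platelets, branched actin fills the lamellipodia of spreading cells, and loss of WASP gives small platelets in low number in people.

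The libraries had the RNA of platelets. All 9 platelet and megakaryocyte markers listed were expressed, with a summed level of 49271 to 51118 FPKM in WT and 45431 to 50490 in KI. Within that sum, 3 of the 9 fell (limma adjusted p of 0.00759 for Tubb1, 0.0139 for Gp1ba and 0.0190 for Itgb3) and 0 rose. Itgb3 is the gene of integrin β3, which carries the knock-in itself. Tubb1, for the platelet tubulin, was 6147 to 6974 FPKM in WT and 3558 to 3899.7 in KI. Groups did not overlap for 7 of the 9, with KI lower for 5 (Tubb1, Gp1ba, Itgb3, Gp6 and Ppbp) and higher for 2 (Pf4 and Gp9). Over all tested genes, 8.36% were called in either direction, and 30.7% had groups that did not overlap. The part of these differences in the results below was not tested. Leukocytes are rich in Arp2/3 and WASP, so their markers were read beside the results. Summed neutrophil markers reached at most 2.19 FPKM in WT and 1.56 in KI, with Camp, Elane and Mpo at 0 in all 6 libraries, and summed B cell markers reached 0.185 and 0.693 (Ms4a1 at 0). T and NK cell markers summed to 2.67 to 4.42 FPKM in WT and 4.95 to 8.83 in KI. Nearly all of that was Nkg7, since the 6 others did not exceed 0.240, and Cd3e, Cd3d, Cd4 and Ncr1 were at 0. Monocyte markers summed to 7035 to 8243 FPKM in WT and 7206 to 9129 in KI through Lyz2, and the 5 others did not exceed 3.21. Erythroid mRNA stood apart in 1 library of each group, at 60932 FPKM in WT library 1 and 115572 in KI library 1 against 16977 to 30659 in the other 4. Depth relative to WT library 1, read from the lowest values, was 0.882 to 1.05. The part of erythroid, Nkg7 or Lyz2 mRNA in the results was not tested.

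The subunit mRNAs lay far apart in level although the proteins assemble in equal number. In WT platelets Arpc2 was the highest at 871, 970 and 967 FPKM, and Actr2 was the lowest at 18.1, 21.6 and 21.3 FPKM. The highest subunit exceeded the lowest 46.1 ± 1.79-fold in WT and 35.6 ± 2.30-fold in KI (SD, n = 3). From the highest, the WT order was Arpc2, Arpc1b, Arpc5, Arpc3, Actr3, Arpc4 and Actr2, and the ranges of neighbours in it overlapped only for Arpc5 and Arpc3. The other 5 libraries placed Arpc3 above Arpc5, and WT library 1 placed Arpc5 above Arpc3; all other positions among the subunits were the same in the 6 libraries. Was, Wipf1 and Wasf2 followed below the subunits in both groups by mean, with ranges that overlapped between Actr2 and Was in WT and between Wipf1 and Wasf2 in both. Ranked against the 4859 genes tested, mean levels ran from percentile 54.1 for Wasf2 to percentile 97.4 for Arpc2.

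**Figure D1:**
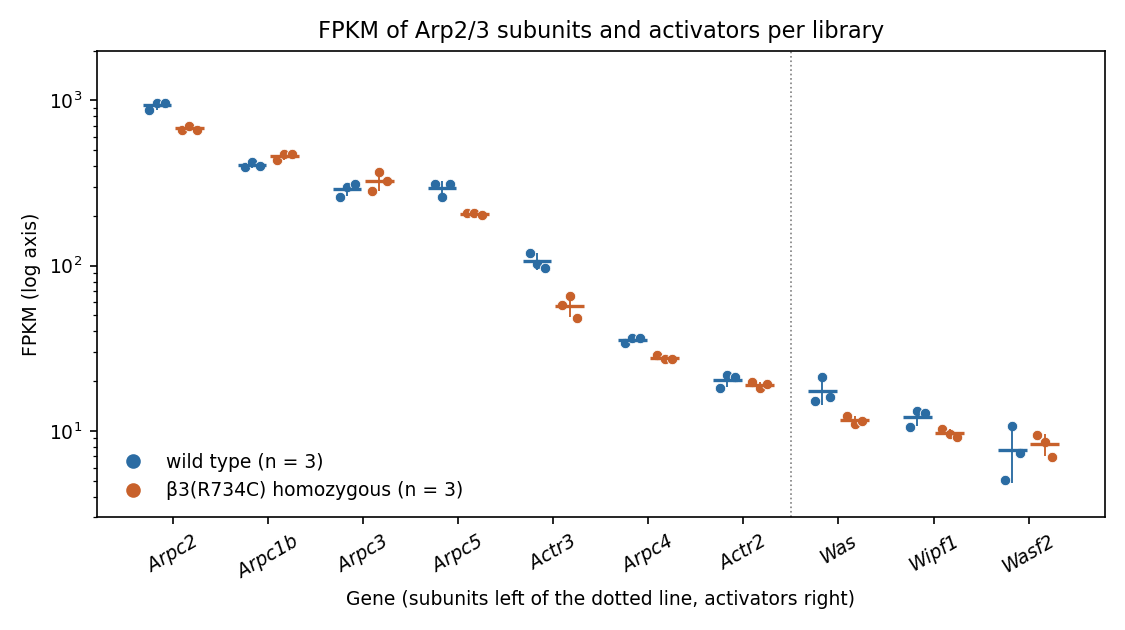
FPKM on a log axis for the 7 subunit genes (ordered by mean) and the 3 genes of the activating machinery (labelled activators). There is 1 point per library, blue for wild type and orange for knock-in, with horizontal lines at the group mean and vertical lines of 1 SD (n = 3). Knock-in points lie below all wild-type points for Arpc2, Arpc5, Actr3, Arpc4, Was and Wipf1, and above them for Arpc1b.

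Of the 10 genes, 3 subunit genes were lower in KI platelets and 0 were higher. They were Actr3, Arpc2 and Arpc5 (limma, adjusted p under 0.05), while 3.99% of all tested genes were called lower, 4.36% higher and 8.36% in either direction. The median log2 fold change was -0.32 over the 10 genes, -0.35 over the 7 subunits and -0.01 over all tested genes. The share of all genes called lower depended on the expression limit. A limit of 5 FPKM on the mean left 2750 genes and kept all 10. Of the 2750, limma then called 253 lower and 258 higher, and among the 10 it called the same 3. In bulk RNA, fewer cells of a type and less RNA per cell cannot be told apart.

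Actr3, which encodes Arp3, had the largest difference. It measured 120.1, 103 and 97.2 FPKM in the WT libraries and 57.5, 65.4 and 48.5 in the KI libraries. Every KI value was below every WT value, and the means were 107 ± 12.0 and 57.1 ± 8.45 FPKM (SD, n = 3), 1.87-fold lower in KI. The log2 fold change of FPKM + 1 was -0.89 (SE 0.14, limma adjusted p = 0.0105). Actr3 spans chromosome 1, 125392905 to 125435727 of GRCm38, minus strand.

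Arpc2, whose protein pairs with that of Arpc4 to form the core of the complex that contacts the mother filament, was the most abundant subunit mRNA. Its KI libraries measured 667, 699.9 and 664 FPKM, all under the lowest WT value of 871. The means were 936 ± 56.4 and 677 ± 19.9 FPKM (SD, n = 3), 1.38-fold lower, with a log2 fold change of -0.47 (SE 0.08, limma adjusted p = 0.0153). The gene spans chromosome 1, 74236084 to 74268209, plus strand.

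Arpc5, a small subunit that ties Arp2 to the rest of the complex, measured 310.5, 260.2 and 312 FPKM in WT and 207, 209 and 203 in KI. The groups did not overlap, and the KI libraries lay closer together than the WT libraries. The means were 294 ± 29.5 and 206 ± 2.97 FPKM (SD, n = 3), 1.43-fold lower, with a log2 fold change of -0.50 (SE 0.10, limma adjusted p = 0.0221). Arpc5 also lies on chromosome 1, at 152766542 to 152775597, plus strand, far from the others. None of the exons of Actr3, Arpc2 or Arpc5 overlaps those of another annotated gene.

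Several calls were lost when 1 library was left out. Without KI library 3, limma called 0 of all tested genes (994 at an unadjusted p under 0.05). Actr3 had an adjusted p of 0.0577 without WT library 2 and 0.0583 without KI library 3. For Arpc2 it was 0.0729 without WT library 2, 0.0711 without WT library 3, 0.0612 without KI library 2 and 0.0722 without KI library 3. For Arpc5 it was 0.0518, 0.0521 and 0.0916 without WT library 1, 2 or 3, and 0.0765 and 0.0910 without KI library 2 or 3. The limma model without a variance trend called none of them (0.0651 for Actr3, 0.103 for Arpc2 and 0.102 for Arpc5), and without a filter on low values Arpc2 (0.0536) and Arpc5 (0.0679) were not called. Without WT library 1 and KI library 1, which were rich in erythroid mRNA, all 3 remained called, at 0.0104, 0.00285 and 0.0219 in the same order. Over the 20 alternatives, the log2 fold change was -1.15 to -0.78 for Actr3, -0.73 to -0.44 for Arpc2 and -0.77 to -0.46 for Arpc5.

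Of the 4 other subunits, Arpc4 and Arpc1b had groups that did not overlap but differences that did not pass the test. Over all tested genes, 30.7% had groups that did not overlap, 15.8% with KI lower and 14.9% with KI higher. Arpc4 measured 33.9, 36.6 and 36.4 FPKM in WT and 28.6, 27.3 and 27.3 in KI, with a log2 fold change of -0.35 (SE 0.12, limma adjusted p = 0.108). Its exons overlap those of Ttll3 on the same strand over 283 bases, and Ttll3 measured at most 1.04 FPKM. Arpc1b, an isoform of the β-propeller subunit, measured 397, 425 and 399.8 FPKM in WT and 434, 476 and 477 in KI. All KI values were above all WT values, at a log2 fold change of 0.18 (SE 0.09, limma adjusted p = 0.228). Pdap1, on the opposite strand, overlaps 931 bases of Arpc1b exons and measured at most 3.15 FPKM.

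Arpc3, which holds Arp3, measured 261, 301 and 312 FPKM in WT and 283, 371 and 326 in KI, and the groups overlapped (log2 fold change 0.16, SE 0.12, limma adjusted p = 0.474). Actr2, for Arp2, measured 18.1, 21.6 and 21.3 FPKM in WT and 19.7, 18.3 and 19.1 in KI (log2 fold change -0.09, SE 0.14, limma adjusted p = 0.751). The positive values of Arpc1b and Arpc3 held under some scalings and not under others. They stayed positive with libraries scaled by their median ratio over genes (0.19 and 0.17). The same held with libraries scaled to a total without erythroid genes and the 20 most abundant genes (0.13 and 0.11). With all libraries brought to an equal total FPKM they became -0.08 and -0.10, while the median of all tested genes moved to -0.23. Relative to that median they were 0.15 and 0.13, against 0.20 and 0.18 for the values as deposited and 0.073 and 0.072 after quantile normalization, and Actr3 was -0.92 against -0.88. Arpc4 (adjusted p = 0.0377) and Was (0.0370) were called lower under that scaling. Measured by the longest annotated coding transcript of each gene, Arpc3 is the shortest of the 7 (899 bases, against 1439 to 3631). Its log2 fold change became -0.06 after a trend of fold change with transcript length was removed.

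The balance between subunits was measured as each gene's share of the summed FPKM of the 7, which does not depend on library scaling. The sum was 2011, 2117 and 2147 FPKM in WT and 1697, 1868 and 1765 in KI. Arpc2 took 43.3, 45.8 and 45.1% of it in WT and 39.3, 37.5 and 37.6% in KI, a difference of -6.60 percentage points. Arpc1b took 19.7, 20.1 and 18.6% in WT and 25.6, 25.5 and 27.0% in KI, a difference of 6.56 points. Shares add up to a fixed total, so a gene's share can rise because others are lower. In FPKM, the KI mean minus the WT mean was -259 for Arpc2 and 55.3 for Arpc1b.

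Arpc3 took at most 14.6% in WT and at least 16.7% in KI, and Arpc5 had 14.1 ± 1.62% and 11.6 ± 0.521% (SD, n = 3). Actr3 had 5.12 ± 0.758% in WT and 3.21 ± 0.405% in KI (SD, n = 3). The groups did not overlap for these 5 genes, and each had an exact two-sided permutation p of 0.1, the smallest that 3 against 3 can give (0.14 adjusted over the 7 shares). Arpc4 had 1.70 ± 0.0238% and 1.56 ± 0.113%, and Actr2 had 0.972 ± 0.0643% and 1.07 ± 0.0896% (SD, n = 3). Shares of those 2 genes overlapped between the groups (exact permutation p = 0.2 and 0.3).

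**Figure D2:**
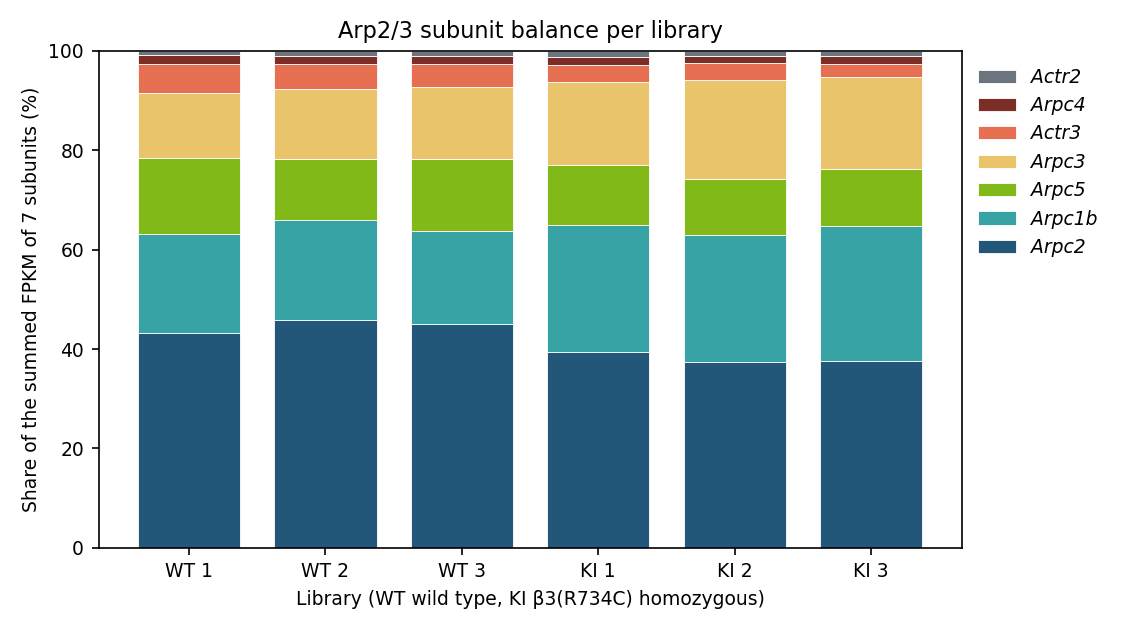
Stacked bars of the share (%) of each of the 7 subunit genes in their summed FPKM, 1 bar per library (WT wild type, KI knock-in). The Arpc2 segment is 43.3 to 45.8% for wild-type libraries and 37.5 to 39.3% for knock-in ones, and the Arpc1b segment is 18.6 to 20.1% and 25.5 to 27.0%.

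Ratios within a library compare subunits directly, without any scaling. All 21 pairs were computed, and those described here were picked after their values were seen. Arpc1b to Arpc3 was 1.52, 1.41 and 1.28 in WT and 1.53, 1.28 and 1.47 in KI, with overlapping groups. The log2 fold changes of that pair differed by 0.02 as deposited and by 0.31 once the length trend was removed. Arpc2 to Arpc5 was 2.81, 3.73 and 3.10 in WT and 3.22, 3.35 and 3.27 in KI, also with overlapping groups. Arpc2 to Arpc4, the pair that forms the core, was 25.7, 26.5 and 26.6 in WT and 23.3, 25.6 and 24.4 in KI, a shift of -0.11 on the log2 scale with all KI values below all WT values. Arpc1b to Arpc2 went from 0.436 ± 0.0213 in WT to 0.683 ± 0.0343 in KI, and Arpc1b to Arpc5 from 1.40 ± 0.204 to 2.24 ± 0.132 (SD, n = 3).

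The largest shift of the 21 was that of Actr3 to Arpc1b, from 0.262 ± 0.0348 to 0.124 ± 0.0193 (SD, n = 3), or -1.09 on the log2 scale. The ratio of the actin-related pair, Actr2 to Actr3, was 0.151, 0.211 and 0.219 in WT and 0.342, 0.280 and 0.394 in KI, 1.76-fold higher by log2 mean. Overlap did not mean a small shift, since Actr3 to Arpc5 overlapped at -0.40 on the log2 scale. Of the 21 pairs, 16 had groups that did not overlap and 10 shifted by more than 0.5 on the log2 scale. The pairs share genes, so a gene that differs moves every ratio it is in, and these counts are not of independent results. Ratios between other genes were not computed, so there is no background share to set beside them. The smallest exact two-sided permutation p adjusted over the 21 pairs was 0.131, and the design allows no single p under 0.1.

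**Figure D3:**
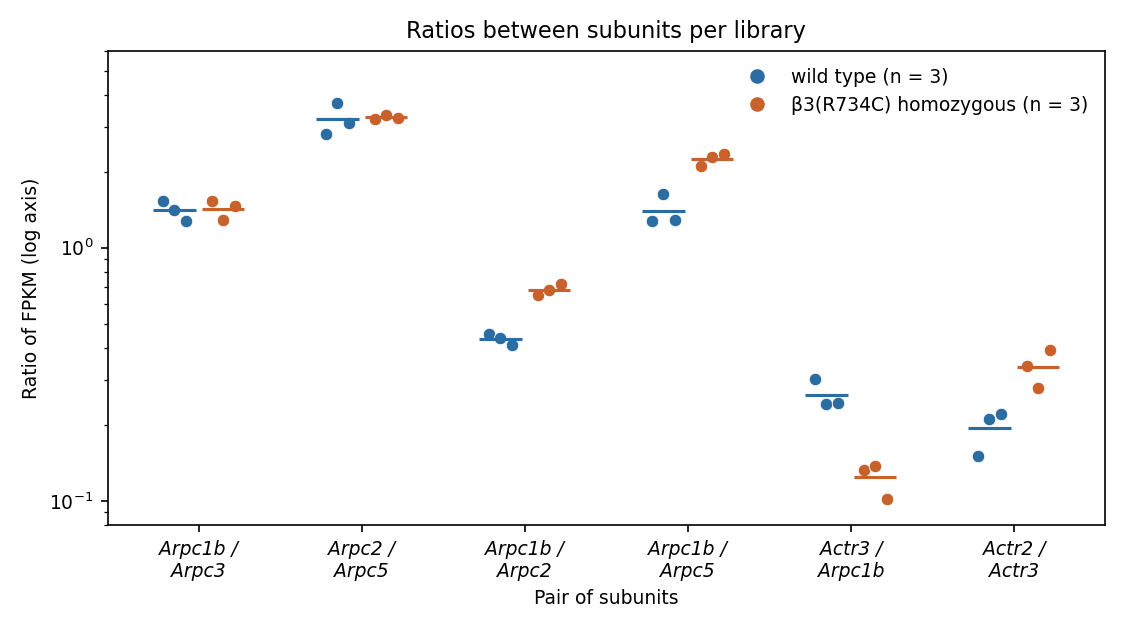
Ratio of FPKM (log axis) for 6 pairs of subunit genes, 1 point per library, blue for wild type and orange for knock-in, with lines at the group means (n = 3). Arpc1b to Arpc3 and Arpc2 to Arpc5 overlap between the groups, while Arpc1b to Arpc2, Arpc1b to Arpc5, Actr3 to Arpc1b and Actr2 to Actr3 do not.

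Several subunits exist as isoforms from separate genes. Arpc1a, the ubiquitous form of the β-propeller subunit, ends 5453 bases before Arpc1b begins on the same strand of chromosome 5. Arpc1a measured 566, 576 and 571 FPKM in WT and 499, 628 and 584 in KI, above Arpc1b in all 6 libraries (log2 fold change -0.01, limma adjusted p = 0.970). Arpc1b made up 41.2, 42.4 and 41.2% of the pair in WT and 46.5, 43.1 and 45.0% in KI (exact two-sided permutation p = 0.1). Arpc5l, the other form of Arpc5, measured 8.60 ± 1.65 FPKM in WT and 9.60 ± 2.59 in KI (SD, n = 3), and Arpc5 made up 97.2 ± 0.364% and 95.6 ± 1.10% of that pair. Actr3b was listed at 0 in all 6 libraries, so Actr3 was the form of Arp3 mRNA seen. With the isoforms added to their partners, the shares shifted in the same directions, with -6.25 points for Arpc2, 7.15 for the Arpc1 pair and 2.93 for Arpc3, which was 4.43 without them. The Arpc4 groups then no longer overlapped (exact permutation p = 0.1).

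Promoters of the subunit genes were read for motifs of factors that act in megakaryocytes, as a description of their sequence. In RefSeq sequence of GRCm38.p6, a promoter was found for all 10 genes, and the 250 bases before the first listed start were searched on both strands. The letters were CCGGAA for ETS factors, AGATAA and TGATAA for GATA factors, TGTGGT for RUNX factors, TGAGTCA for the NF-E2 core, and the CArG box of SRF. CCGGAA occurred in 4 of the 7 subunit windows (Actr2, Actr3, Arpc3 and Arpc4), 4 of the windows of all 10 genes and 12.0% of 32851 promoters. The 32851 include further promoters of the same gene and were not matched for base content, so these shares are not a test. Actr3 held 3 copies, at 86, 14 and 8 bases before its start, counted to the first base of the match. Arpc4 held a CArG box (1.47% of all promoters), Was held TGTGGT (14.0%), and the GATA and NF-E2 letters were in none of the windows.
The 3 windows below show the ETS letters in a subunit that fell (Actr3) and in a pair that did not pass the test (Actr2 and Arpc3); capitals mark CCGGAA as printed or on the other strand, and all run 5′ to 3′ up to the base before the start. They are chr1:125435728-125435977 (minus strand), chr11:20112952-20113201 (minus strand) and chr5:122391628-122391877 (plus strand).
Actr3: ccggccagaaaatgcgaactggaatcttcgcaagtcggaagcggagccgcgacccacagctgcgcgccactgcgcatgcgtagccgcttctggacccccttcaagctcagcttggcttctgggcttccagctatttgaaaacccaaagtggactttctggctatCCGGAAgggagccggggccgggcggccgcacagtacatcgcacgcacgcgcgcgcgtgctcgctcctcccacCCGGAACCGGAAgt
Actr2: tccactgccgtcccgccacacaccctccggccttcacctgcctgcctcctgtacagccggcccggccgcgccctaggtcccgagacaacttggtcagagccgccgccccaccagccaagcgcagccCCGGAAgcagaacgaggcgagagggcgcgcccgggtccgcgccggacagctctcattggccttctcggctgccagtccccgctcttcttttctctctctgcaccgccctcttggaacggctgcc
Arpc3: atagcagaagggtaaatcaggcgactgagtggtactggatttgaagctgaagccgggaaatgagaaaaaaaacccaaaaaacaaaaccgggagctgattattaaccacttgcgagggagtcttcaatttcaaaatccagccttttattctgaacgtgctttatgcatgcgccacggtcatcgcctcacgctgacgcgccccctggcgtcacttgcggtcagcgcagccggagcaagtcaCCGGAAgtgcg
The letters were present in windows of subunits with different outcomes, and they were absent from those of Arpc2 and Arpc5, which fell. The Arpc2 window (chromosome 1, 74236267 to 74236516) lies after the gene start of 74236084 given above and holds bases of Arpc2 exons. It is therefore not the sequence before that start. Windows of Arpc1b, Was, Wasf2 and Wipf1 also hold exon bases of their own gene. Only exact CCGGAA was counted, so absence of these letters does not mean absence of ETS sites.

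None of the 3 genes of the activating machinery passed the test. Was, which encodes WASP, the activator of blood cells, measured 15.2, 21.2 and 16.1 FPKM in WT and 12.3, 11.0 and 11.5 in KI. All KI values were below all WT values, with means of 17.5 ± 3.23 and 11.6 ± 0.661 FPKM (SD, n = 3). The log2 difference of -0.54 (SE 0.17) had a limma adjusted p of 0.0942. Wipf1 encodes WIP, which binds WASP and protects it from degradation. It measured 10.5, 13.2 and 12.9 FPKM in WT and 10.3, 9.55 and 9.24 in KI, without overlap (log2 fold change -0.30, SE 0.17, limma adjusted p = 0.310). Wasf2, for the WAVE protein that answers to Rac, measured 5.06, 10.6 and 7.31 FPKM in WT and 9.43, 8.60 and 6.98 in KI. Its WT libraries had the widest spread of the 10 genes (coefficient of variation 36.6%), and its log2 fold change of 0.15 (SE 0.26, limma adjusted p = 0.776) became -0.08 without WT library 1 and -0.09 with an equal total. Was lies on chromosome X at 8081453 to 8090498 (minus strand), Wipf1 on chromosome 2 at 73429610 to 73529734 (minus strand) and Wasf2 on chromosome 4 at 133130505 to 133199756 (plus strand).

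Other members of the families were nearly silent. Wasl, for the ubiquitous N-WASP, was the highest of 5 further WASP, WAVE and WIP genes. It measured 0, 0.0895 and 0 FPKM in WT and 0.599, 0.377 and 0.895 in KI, all KI values above all WT values. Wipf2, named after its values were seen, went the other way without overlap. It measured 0.155, 0.160 and 0.0276 FPKM in WT and 0.0160, 0 and 0 in KI. None of the 5 reached the limit for testing, and the share without overlap was not counted among genes below it. Of 8 partners in the WAVE regulatory complex, 6 were tested and 0 passed in limma (1 at an unadjusted p under 0.05: Cyfip1, named after its values were seen, at an adjusted p of 0.0505 and under 0.05 in 7 of 20 alternatives), with a median log2 fold change of -0.25. The most abundant partner was Nckap1, which joins the WAVE complex to active Rac together with Cyfip1, at 135, 134 and 124 FPKM in WT and 124, 95.3 and 109.4 in KI (limma adjusted p = 0.216). Of 5 WASH complex genes, which act on endosomes, 2 were tested and 0 passed (0 at an unadjusted p under 0.05), and the highest, A230046K03Rik (Washc4), measured 1.26 to 2.19 FPKM in WT and 1.56 to 3.42 in KI.

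Among the 55 other genes of branched and unbranched actin nucleation listed for this comparison, 29 were tested, 4 fell (13.8%, against 3.99% of all tested genes) and 0 rose, with a median log2 fold change of -0.26. The lists were chosen with earlier results of these data known, so the higher share is not a test of them. With a limit of 5 FPKM on the mean, limma called 6 of the listed genes lower, and 253 of all 2750 genes. Fewer than the 29 listed genes reached that limit, so the 6 are not a share of 29. The falls were those of Nck2 and Rac1 upstream of WASP and WAVE, of Cttn at the branch, and of Coro1b in branch disassembly. Nck2, an adaptor that recruits WASP to phosphorylated receptors, measured 178, 228 and 194 FPKM in WT and 117, 94.1 and 95.7 in KI (log2 fold change -0.96, SE 0.13, limma adjusted p = 0.00846). Its close relative Nck1, named after its values were seen, was not called (0.53 on the log2 scale, limma adjusted p = 0.171). Rac1, the GTPase that opens the WAVE complex and the most abundant gene of the upstream list, measured 1922, 1770.1 and 1896 FPKM in WT and 1374, 1334 and 1540.3 in KI (log2 fold change -0.40, SE 0.09, limma adjusted p = 0.0291). All KI values of both called genes were below all WT values. Exons of Rac1 overlap those of Daglb on the opposite strand over 2309 bases, and Daglb measured at most 3.65 FPKM.

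Cttn, for cortactin, which binds branch points and stabilises them, measured 31.4, 33.9 and 33.5 FPKM in WT and 20.2, 20.1 and 19.0 in KI (log2 fold change -0.71, SE 0.12, limma adjusted p = 0.0148). Coro1b, for a coronin that takes branches apart, measured 86.5, 96.4 and 98.9 FPKM in WT and 57.7, 54.3 and 54.7 in KI (log2 fold change -0.74, SE 0.11, limma adjusted p = 0.00940). They were the called genes of 3 tested branch stabilisers and of 4 tested inhibitors and debranching genes. The other 5 tested genes of those lists did not pass, with log2 fold changes from -0.79 for Coro1a to 0.11 for Gmfb. Coro1b shares 432 exon bases with Ptprcap or Rps6kb2, which measured at most 2.90 and 8.61 FPKM. Of 13 nucleators of unbranched filaments, 5 were tested and 0 passed (0 at an unadjusted p under 0.05), and the highest, the formin gene Inf2, measured 17.5 to 18.3 FPKM in WT and 13.5 to 15.5 in KI (limma adjusted p = 0.237).

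These calls were also lost with fewer libraries, at similar fold changes. Without KI library 3, log2 fold changes were -0.92 for Nck2, -0.73 for Coro1b, -0.68 for Cttn and -0.46 for Rac1, and none of the 4 passed, with adjusted p of 0.0508 for Nck2, 0.0538 for Coro1b, 0.0688 for Cttn and 0.0614 for Rac1. Without WT library 2, Coro1b (0.0548), Cttn (0.0647) and Rac1 (0.0819) did not pass. Cttn was at 0.0625 without WT library 3 and 0.0594 without KI library 2. Rac1 was at 0.0640 without WT library 1, 0.112 without WT library 3, 0.120 without KI library 2 and 0.0658 after removal of the length trend. Without the variance trend none of the 4 was called (0.0623 for Nck2, Coro1b and Cttn, 0.149 for Rac1), and with no filter Rac1 was at 0.0972.

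**Figure D4:**
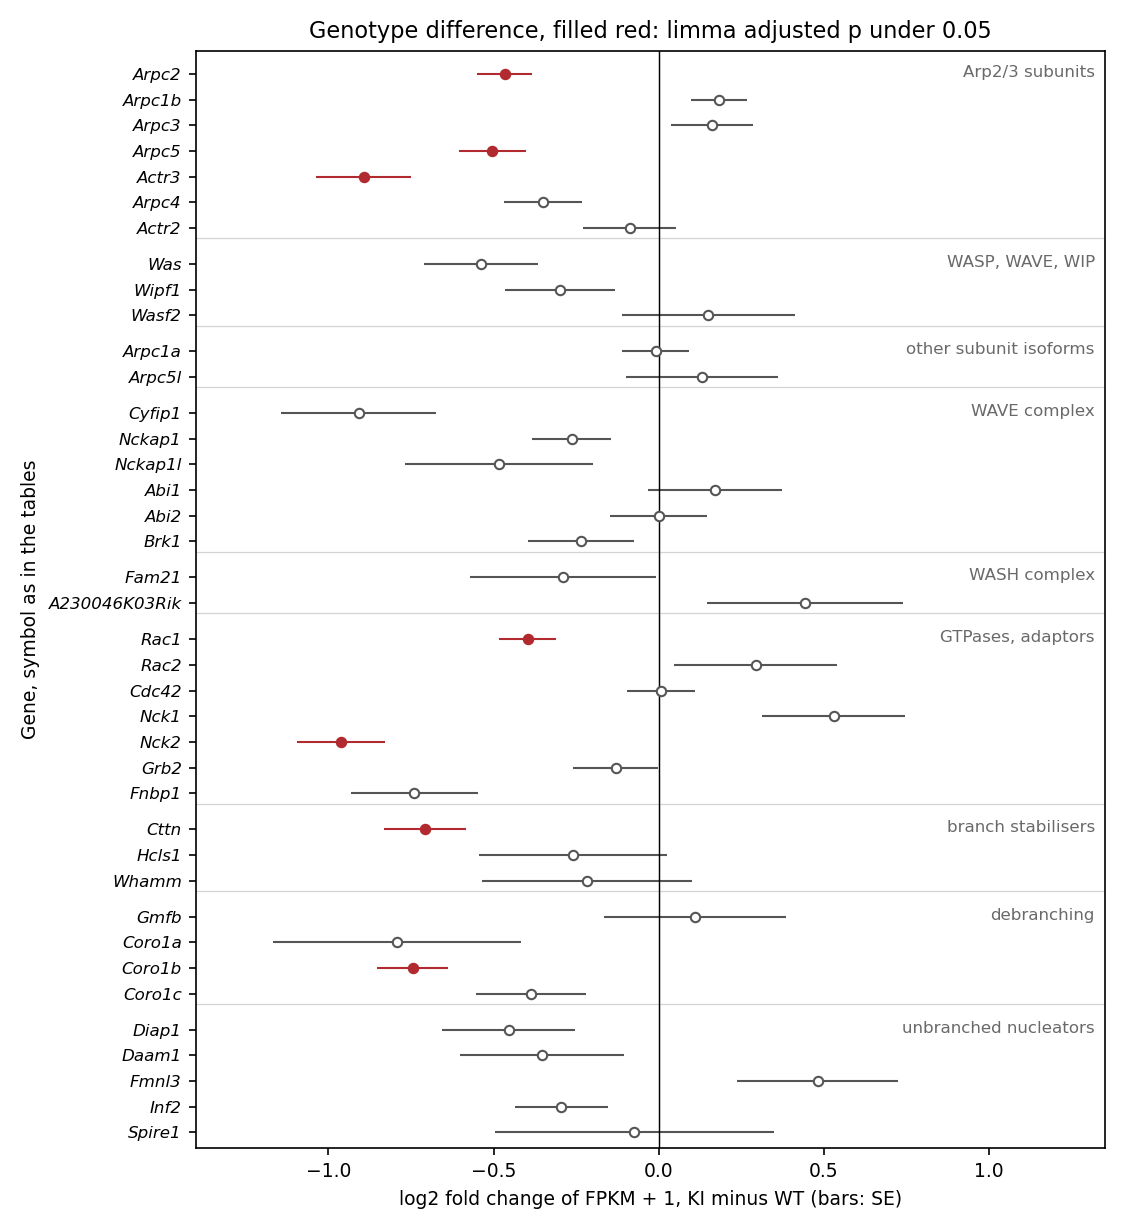
Log2 fold change of FPKM + 1 (knock-in minus wild type, bars of 1 SE, 3 libraries per group) for the 10 genes and the 29 tested genes of the other lists, grouped by role, with symbols as the tables give them. Filled red points passed limma's adjusted p of 0.05: Arpc2, Arpc5, Actr3, Rac1, Nck2, Cttn and Coro1b, all below 0.

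The mean profile of the 7 subunits over the 6 libraries, each gene centred on its own mean of log2(FPKM + 1), was 0.10, 0.15 and 0.17 in WT and -0.17, -0.08 and -0.17 in KI. Arpc4 lay closest to it among the subunits (root mean square difference 0.0597) and Actr3 farthest (0.340). Outside the listed genes, and among 1976 genes with a mean of at least 10 FPKM, the 3 closest were Muc13 (0.0341), Tsc22d1 (0.0342) and Otulin (0.0425). None of the 3 passed the test itself, with limma adjusted p of 0.216, 0.0825 and 0.204.

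**Figure D5:**
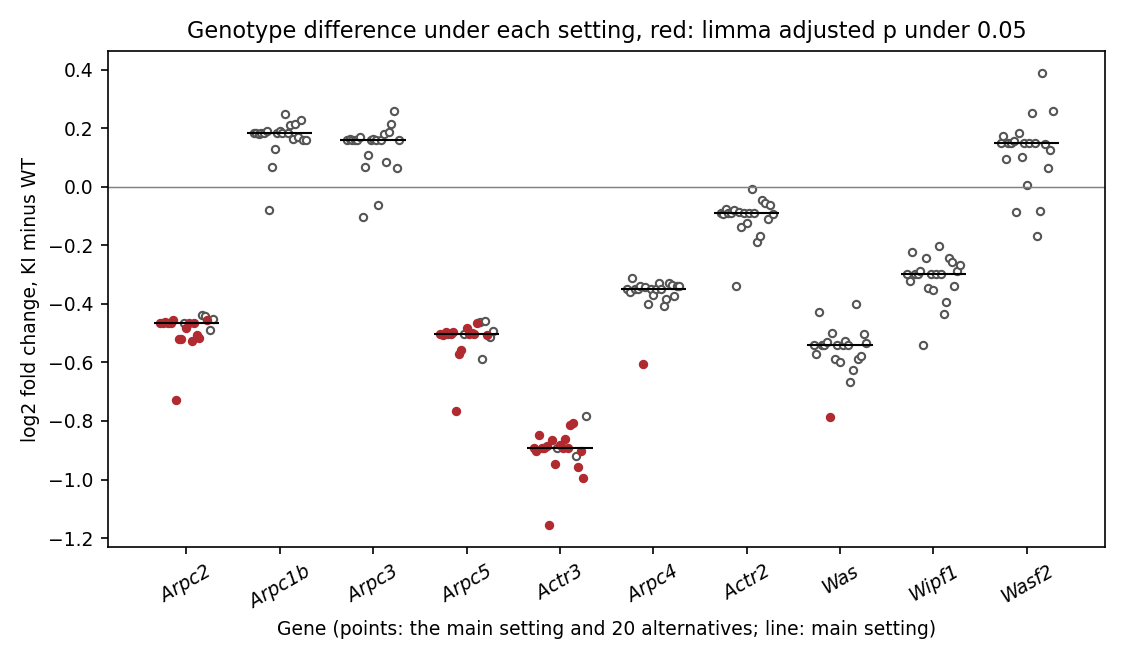
Log2 fold change (knock-in minus wild type) of each of the 10 genes under the main setting (black line) and 20 alternatives (points), with red points where limma's adjusted p was under 0.05. Actr3, Arpc2 and Arpc5 stay below 0 at every point, from -1.15 to -0.44. So do Arpc4, Was, Wipf1 and Actr2, from -0.79 to -0.0065, while Arpc1b, Arpc3 and Wasf2 have points on both sides of 0.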

How the data were processed

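RNA was sequenced from 3 wild-type and 3 knock-in platelet libraries, grouped by sample title. SMART-Seq HT cDNA went into Nextera XT libraries, per the labels' protocols, and neither kit marks strand. The authors deposited FPKM per gene symbol. Build mm10 and the tools Cuffdiff 2.2.1, TopHat2 2.1.1, SAMtools 0.1.18 and Bowtie2 2.2.8 are named per the submitters' processing notes; their settings and annotation are not given in the sources used here. Read counts were not analysed here, so absolute depth is unknown; relative depth came from the commonest ratio of values under 1 FPKM.

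Genes with a mean of at least 1 FPKM (4859 of 12260 above 0 in any library) were transformed to log2(FPKM + 1) and tested between the groups with limma 3.58.1 (R 4.3.3), using a variance trend, no covariate and Benjamini-Hochberg adjustment over all of them, at 0.05. Fold changes on that scale understate low genes. The script was tested on simulated data. Subunit shares and ratios were compared by exact two-sided permutation in scipy 1.17.1. Positions, transcript lengths and exon overlaps are from GENCODE M21 (GRCm38) and promoters from RefSeq (GRCm38.p6). Of the tested genes, 4816 had a transcript length. The listed genes matched the tables by symbol or older symbol, except the markers Hbb-bt and Ighm.

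The members and lists were chosen with earlier results of these data known. The text names the 10 members, every gene of another list that passed and the most abundant gene of each list, and the 3 closest profiles; others are marked where named. Alternatives covered pseudocounts, filters, scaling, variance models, transcript length, a replicate block and left-out libraries.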

Additional observations from a re-analysis of the deposited data

How the results depend on the processing

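The values are few libraries of FPKM without counts, so the error of single low genes cannot be split into counting and other parts. The 3 calls among the 10 genes became 1 with no filter on low values, 5 with libraries scaled to an equal total and 0 without the variance trend (5 at an unadjusted p under 0.05 in limma); leaving out 1 library gave 0 to 3. The 4 calls among the other listed genes became 8 with an equal total and 0 without the variance trend (9 at an unadjusted p under 0.05); leaving out 1 library gave 0 to 6. Over all tested genes, 406 calls (212 higher, 194 lower) became 107 with no filter, 0 without the variance trend (1197 at an unadjusted p under 0.05) and 728 without both libraries rich in erythroid mRNA, and an equal total gave 51 higher and 484 lower. Leaving out 1 library gave 0 to 610 calls over all tested genes, with 0 without knock-in library 3 (994 at an unadjusted p under 0.05).

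Alternatives were computed for 21 genes (the 10 and 11 others), and these signs reversed, none of a called gene. With an equal total, log2 fold changes were -0.081 for Arpc1b, -0.10 for Arpc3, -0.086 for Wasf2 and -0.11 for Arpc5l. After removal of the length trend Arpc3 was -0.064. Wasf2 was -0.17 without both libraries rich in erythroid mRNA, and leaving out 1 library gave -0.083 (without wild-type library 1) to 0.39. Arpc1a was 0.017 with sample weights and 0.077 without both libraries, and leaving out 1 library gave -0.082 to 0.084 (without knock-in library 1). For Arpc5l leaving out 1 library gave -0.059 (without knock-in library 2) to 0.27. The 7 share differences kept their sign in all 9 alternatives run for each: leaving out 1 library, added isoforms, quantile normalization and the within-pair test. The within-pair test changes only the p-value, so it could not change a sign. Removal of the length trend, which reversed the log2 fold change of Arpc3, was not run on the shares. Their sizes moved: the Actr2 difference of 0.102 points became 0.0604 without knock-in library 1, 0.0661 without wild-type library 1, 0.0502 with isoforms added and 0.155 after quantile normalization, and that of Arpc4, -0.139, was -0.0877 without knock-in library 2 and -0.0476 after quantile normalization. A230046K03Rik has no value at a mean of at least 5 FPKM. The cause of these differences was not tested.

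The groups share replicate numbers, which the main model did not use. Correlations of deviations from the group means across genes were 0.158, 0.0235 and 0.141 for same-numbered libraries. They were -0.160 to 0.0674 for libraries of different number. Whether the numbers mark pairs or a shared batch cannot be settled from these values. Of the 6 libraries, 5 correlated best with their own number, the exception being knock-in library 2. With the replicate number as a block, calls over all tested genes were 306, those among the 10 genes 3 and those among the other listed genes 3, where Rac1 had an adjusted p of 0.0510. Within pairs, exact p for the shares was 0.25 at the lowest, the smallest that 3 pairs can give.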
